A study of Carica papaya with 12 samples.

Results

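The late stamen genes of papaya are genes that were on in male and hermaphrodite flower buds of 7–12 mm and low in every other library of the series. They were chosen on CPM, the counts of a gene per 1000000 counts of its library, with 0.5 added. A gene was kept where its lowest value over the 4 male and hermaphrodite libraries of 7–12 mm was at least 5 and at least 4 times its highest value over the other 8 libraries, and genes of the study's own tables of developmental genes were left out. This rule found 53 of 27689 gene models, of which 23196 had a count in some library. None of the 83 tabled genes met it.

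Plants of 3 sexes of papaya (Carica papaya) were compared: male 'AU9', hermaphrodite 'SunUp' and female 'AU9' plants. They were grown at a research station in Hawaii. Whole flower buds were sorted by length into 7–12 mm, described as past meiosis, and 1–6 mm, described as before meiosis, and RNA-Seq was run on 2 libraries from each of the 6 groups. Sex and cultivar cannot be told apart where hermaphrodites are compared with either other sex. A HiSeq2000 gave single-end reads for replicate 1 of every group, and a HiSeq2500 gave read pairs for replicate 2. The replicates are described as biological, but nothing says whether they came from separate plants, so the p-values measure only the spread between these libraries.

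Male papaya flowers bear stamens around a vestigial pistil, hermaphrodite flowers bear stamens and a functional pistil, and female flowers bear no stamens. Inside the anther, the tapetum is a nurse layer that feeds the developing microspores, secretes enzymes that free them from the tetrad, and supplies lipids and proteins to the pollen wall. In Arabidopsis this layer is controlled by a chain of regulators that runs from SPOROCYTELESS/NOZZLE (SPL/NZZ) through DYT1, TDF1 and AMS to MALE STERILITY 1 (MS1), a PHD finger protein that acts after the others. Genes that turn on in the anther after meiosis include those for the pollen wall and for tapetum secretion. The 53 gene models carry identifiers of the older papaya annotation, and the reference table of gene names matched none of them, so they are named by identifier and no function is given to any.

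The libraries held 12704714 to 16564137 counts each in replicate 1, and from 4520811 to 8554135 in replicate 2. By the study's alignment summary, hermaphrodite replicate 2 of 1–6 mm had the largest share of unaligned reads. Male replicate 2 of 1–6 mm had the next largest. Every comparison with male or hermaphrodite buds of 1–6 mm uses 1 or both of these libraries. The label was checked with 7 anther regulators (SPL/NZZ, DYT, TDF1, both AMS isoforms, CpMS1 and CpMMD1). Their summed level was 800 and 838 CPM in male buds and 1836 and 1460 CPM in hermaphrodite buds of 7–12 mm, 1534 and 1181 CPM in male buds and 818 and 980 CPM in hermaphrodite buds of 1–6 mm, and 0.263 to 2.69 CPM in the 4 female libraries. The male and hermaphrodite libraries thus held RNA of these 7 genes at both sizes, and the female libraries held next to none of it. The study chose these genes partly on the same libraries, so the check is not independent of them. Other genes of its anther pathway, such as TPD1 and the receptor kinases RPK2 and EMS1/EXS-like, were present in every female library. RPK2 was higher there than in any male or hermaphrodite library. Whole buds were sequenced, so that the 53 genes are transcribed in the stamen was not measured. In such bulk samples fewer cells of a type and less RNA per cell cannot be told apart.

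Together the 53 genes made up 1.92 and 1.87% of all counts in male buds of 7–12 mm (1.90 ± 0.04%, SD, n = 2) and 0.955 and 1.43% in hermaphrodite buds of that size (1.19 ± 0.34%, SD, n = 2). In buds of 1–6 mm they made up 0.0564 and 0.0358% of counts in males and 0.0208 and 0.0248% in hermaphrodites. Female buds had 0.00796 and 0.0115% at 7–12 mm and 0.00768 and 0.00878% at 1–6 mm. The order male, hermaphrodite, female held at both sizes with no overlap between libraries. That male and hermaphrodite buds of 7–12 mm had the largest shares follows from the rule, and the shares are given as a description. The order of male over hermaphrodite does not follow from it. A few abundant genes made up most of the counts in these 2 groups, as given below.

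**Figure D1:**
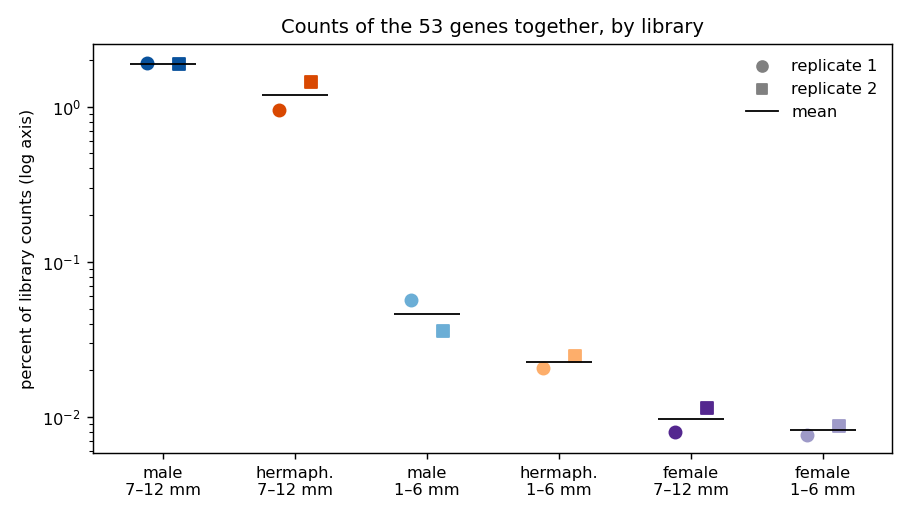
Share of each library's counts taken by the 53 late stamen genes together, in percent on a log axis, for the 2 libraries (circle, replicate 1; square, replicate 2) and the mean (line) of each of the 6 groups. Male buds of 7–12 mm sit at 1.87 to 1.92%, hermaphrodite buds at 0.955 to 1.43%, and the female libraries at 0.00768 to 0.0115%.

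Levels within the group ran over several orders of magnitude. The mean over the 4 libraries of 7–12 mm male and hermaphrodite buds was at least 1000 CPM in 6 genes, 100 to 1000 CPM in 11, 10 to 100 CPM in 30 and under 10 CPM in 6, with a median of 46.2 CPM and a range of 6.17 to 2860 CPM. The 6 most abundant made up 58.3 to 73.0% of the group's counts in those 4 libraries. The ratio that the rule used, the lowest of the 4 libraries over the highest of the other 8, ran from 4.01 to 69.6 with a median of 10.6, and it was at least 10 in 29 genes. The highest of the other 8 libraries was a male library of 1–6 mm for 34 genes, a hermaphrodite library of 1–6 mm for 10, a female library of 7–12 mm for 5 and a female library of 1–6 mm for 4.

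**Figure D2:**
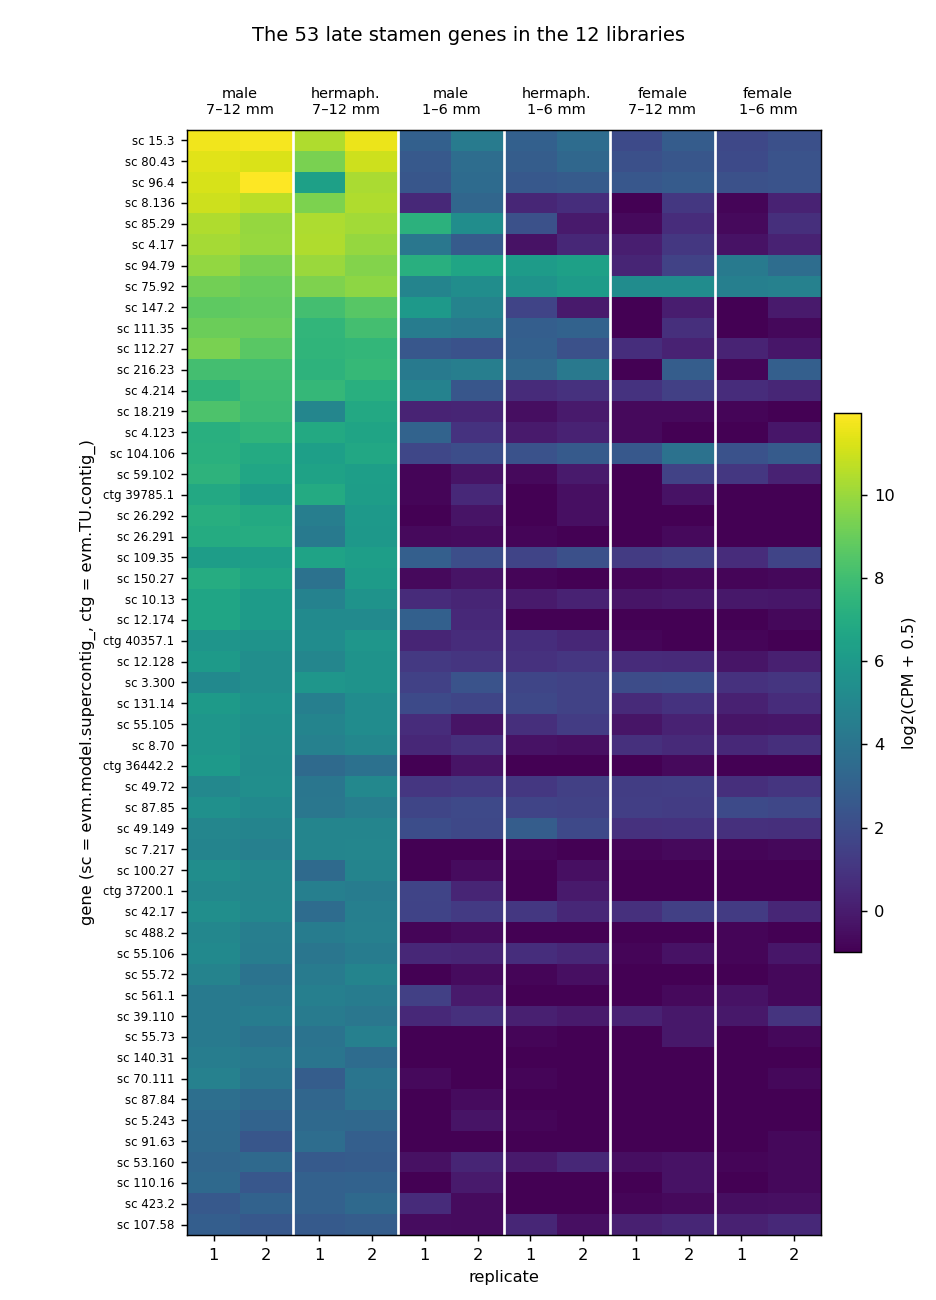
Level of each of the 53 genes (rows, ordered by mean level in the 4 libraries at the left) in the 12 libraries (columns, by group and replicate), as log2(CPM + 0.5). The 4 male and hermaphrodite libraries of 7–12 mm stand apart from the other 8 in every row, as the rule requires, and a few rows, such as those of supercontig_85.29, supercontig_147.2 and supercontig_94.79, are also raised in male buds of 1–6 mm.

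The most abundant member was evm.model.supercontig_15.3. It had 3389 and 3545 CPM in male buds and 1403 and 3101 CPM in hermaphrodite buds of 7–12 mm, against 7.43 and 20.6 CPM in male buds and 7.40 and 11.5 CPM in hermaphrodite buds of 1–6 mm. Female buds had 3.301 and 6.46 CPM at 7–12 mm and 2.96 and 3.97 CPM at 1–6 mm. It is also the member with the highest level per coding length, 7750 CPM per kb over 369 coding bases, and its model overlaps another model on the same strand, so its counts may be shared with that one.

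The second, evm.model.supercontig_80.43, had 2678 and 2460.0 CPM in male buds and 671 and 2047 CPM in hermaphrodite buds of 7–12 mm, and 3.22 to 12.1 CPM in the other 8 libraries. The third, evm.model.supercontig_96.4, had 2362 and 4058 CPM in male buds but 82.0 and 1291 CPM in hermaphrodite buds of 7–12 mm, against 4.21 to 11.1 CPM in the other 8. These 3 genes were low but not at 0 in all of the other 8 libraries. Each had a count in all 4 female libraries, with 175, 183 and 224 counts summed over them for supercontig_15.3, supercontig_80.43 and supercontig_96.4.

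The fourth, evm.model.supercontig_8.136, had the largest ratio of all 53, at 69.6. It had 2047 and 1579 CPM in male buds and 689 and 1379 CPM in hermaphrodite buds of 7–12 mm, against 0.906 and 9.40 CPM in male buds and 0.808 and 1.11 CPM in hermaphrodite buds of 1–6 mm. Female buds had 0 and 1.62 CPM at 7–12 mm and 0.0658 and 0.701 CPM at 1–6 mm. Its female counts summed to 19, against 175 to 224 for the 3 genes above it. The other genes with the largest ratios were supercontig_15.3 (66.4), evm.model.supercontig_4.17 (55.7), supercontig_80.43 (53.1) and evm.TU.contig_39785.1 (51.0).

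A further 2 genes were above 1000 CPM with hermaphrodite buds at the male level. For evm.model.supercontig_85.29, male buds of 7–12 mm had 1410.5 and 989 CPM and hermaphrodite buds 1349 and 1160.3 CPM, while supercontig_4.17 had 1216 and 1018 CPM in males and 1374 and 979 CPM in hermaphrodites. In both genes the libraries of the sexes overlapped. They are taken up again below, since they set male apart from hermaphrodite buds at 1–6 mm.

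The other gene named for its ratio, contig_39785.1, is the shortest model at 236 coding bases. It had 115 and 71.4 CPM in male buds and 121 and 73.5 CPM in hermaphrodite buds of 7–12 mm, and at most 0.910 CPM in any other library, with 2 counts in all the female libraries together. The only member with no count in any of the other 8 libraries was evm.model.supercontig_140.31, chosen after its values were seen, which had 22.6 and 18.5 CPM in male buds and 15.9 and 11.4 CPM in hermaphrodite buds of 7–12 mm.

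The rule capped the level of every member outside the male and hermaphrodite buds of 7–12 mm. Some members still passed 10 CPM in male buds of 1–6 mm, such as supercontig_85.29, with 160 and 40.3 CPM. Only 3 members were above 10 CPM in any female library. These were evm.model.supercontig_75.92, evm.model.supercontig_94.79 and evm.model.supercontig_104.106, the last chosen for mention after its values were seen. The gene supercontig_75.92 had 596 and 507 CPM in male buds and 709 and 878 CPM in hermaphrodite buds of 7–12 mm, 28.9 and 40.3 CPM in male buds and 51.0 and 68.6 CPM in hermaphrodite buds of 1–6 mm, and 39.5 and 40.0 CPM in female buds of 7–12 mm and 24.1 and 25.8 CPM in those of 1–6 mm. It is a short model of 346 coding bases and ranked 4th of the 53 per kb. Its libraries from female buds of 7–12 mm thus overlapped those from male buds of 1–6 mm.

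At the threshold of the rule, the members nearest inside were evm.model.supercontig_42.17 (ratio 4.01), evm.model.supercontig_423.2 (4.04) and evm.model.supercontig_49.149 (4.11). The genes nearest outside were evm.model.supercontig_209.3 (3.94), evm.model.supercontig_96.30 (3.84) and evm.model.supercontig_57.7 (3.83). The gene supercontig_42.17 had 41.8 and 31.6 CPM in male buds and 11.7 and 23.8 CPM in hermaphrodite buds of 7–12 mm with at most 2.54 CPM elsewhere, while supercontig_209.3 had 32.8 and 33.1 CPM in male buds and 25.02 and 26.76 CPM in hermaphrodite buds with 5.98 CPM in male replicate 1 of 1–6 mm. The membership also turned on single libraries. Without hermaphrodite replicate 1 of 7–12 mm, the lowest of the 4 libraries for 29 members, the rule would keep 89 genes, and without male replicate 1 of 1–6 mm, the highest of the other libraries for 18 members, it would keep 75.

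The replicates of hermaphrodite buds of 7–12 mm were far apart for some members. The level in replicate 2 over that in replicate 1 had a median of 1.26 and a range of 0.611 to 15.6, and it was at least 2 in 10 of the 53 genes, against 1.77% of 15113 genes of at least 5 CPM in this group. In male buds of 7–12 mm the same ratio had a median of 0.799 and a range of 0.50 to 1.72, and no member reached 2, against 1.80% of 15351 genes. Replicate 2 was thus the higher hermaphrodite library for 36 members and the higher male library for 12.

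The widest gap was that of supercontig_96.4, with 1291 CPM in hermaphrodite replicate 2 and 82.0 CPM in replicate 1. Next came evm.model.supercontig_150.27, chosen for mention after its values were seen, with 129 and 96.5 CPM in male buds and 14.3 and 68.4 CPM in hermaphrodite buds of 7–12 mm. The gene evm.model.supercontig_18.219 had 329 and 227 CPM in male buds and 31.0 and 114 CPM in hermaphrodite buds. In each of these genes hermaphrodite replicate 1 was the low library. Replicate and sequencing platform cannot be told apart in this gap.

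**Figure D3:**
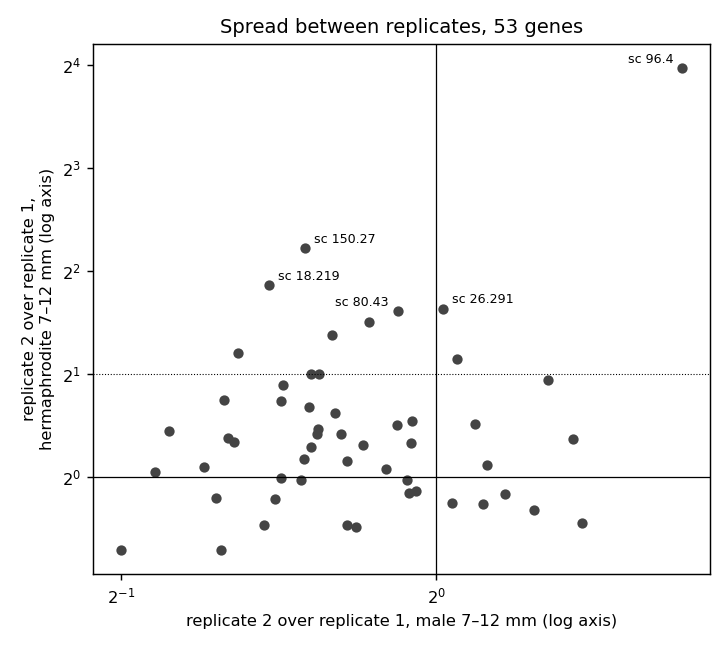
Level in replicate 2 over that in replicate 1 for the 53 genes, in male buds of 7–12 mm (horizontal, log axis) and in hermaphrodite buds of 7–12 mm (vertical, log axis), each point a gene. In hermaphrodites 10 genes lie at or above 2 (dotted line) and the highest, supercontig_96.4, at 15.6, while in males none lies above 1.72.

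The first comparison tested was male against hermaphrodite buds of 7–12 mm, both of which the rule asked to be high. The rule set no direction between them. It did use the lowest of their 4 libraries, so it worked against genes far lower in 1 sex. By edgeR's quasi-likelihood test with Benjamini-Hochberg adjustment over the 19339 genes tested, called at an adjusted p under 0.05 and a change above 2-fold, 3 of the 53 members were higher in males and none was lower. All 53 passed the filter on low counts, as genes high in 4 libraries must. Over all genes tested 8.58% were called, 4.28% higher and 4.30% lower, against 5.66% of the members. The members were limited by the rule, so their shares here are not like those of all genes. Nothing is read from setting the 2 side by side. At an unadjusted p under 0.05 there were 13 members. The median log2 fold change of the members was 0.51 (range -0.56 to 2.20), against 0.02 over all genes tested, and it was positive in 35 of 53. The libraries of the sexes did not overlap for 34 members, against 55.2% of genes tested, and the males were the higher without overlap for 30 of the 53, against 31.8% of genes tested.

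The gene with the largest called change was supercontig_18.219, whose values are given above and whose male libraries both exceeded the hermaphrodite ones (log2 fold change 1.93 ± 0.52, SE, adjusted p = 0.0396 by edgeR). This call rested on every library but hermaphrodite replicates 1 and 2 of 7–12 mm: leaving out any of the other 10 ended it, with adjusted p up to 0.30 over the alternatives. The gene evm.model.supercontig_112.27, the longest model at 4292 coding bases, had 664 and 398 CPM in male buds and 178 and 190.0 CPM in hermaphrodite buds. It was higher in males (1.49 ± 0.26, SE, adjusted p = 0.00362 by edgeR) and stayed so under every alternative run. The gene evm.model.supercontig_10.13 had 98.2 and 69.9 CPM in male buds and 26.6 and 49.7 CPM in hermaphrodite buds (1.11 ± 0.27, SE, adjusted p = 0.0177 by edgeR), and this call was lost without male or hermaphrodite replicate 1 of 7–12 mm.

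The count stayed at 3 with RLE size factors in place of TMM. It was 11 without hermaphrodite replicate 2 and 1 without male replicate 1 of 7–12 mm. With the replicate number as a block 6 members were called, all higher in males, and these were supercontig_18.219, evm.TU.contig_36442.2, evm.model.supercontig_26.291, supercontig_112.27, evm.model.supercontig_111.35 and supercontig_10.13. Within replicate 1 the male level was above the hermaphrodite one for 41 members, with a median ratio of 1.58, and over 2-fold higher for 21, against 5.18% of genes of at least 5 CPM. Within replicate 2 it was above for 34 members, with a median of 1.14, and over 2-fold higher for 4, against 5.23% of genes. The male excess was thus larger within replicate 1.

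**Figure D4:**
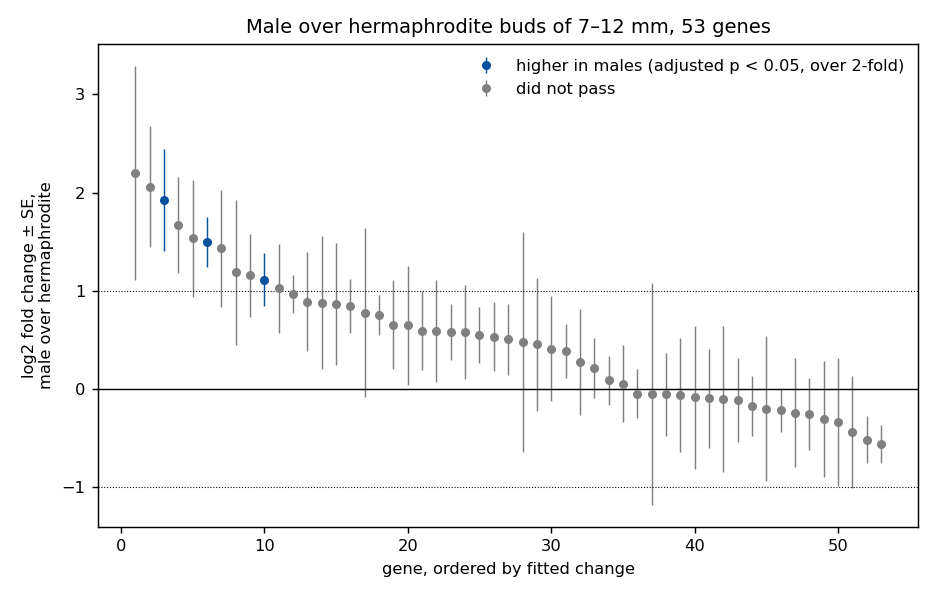
Fitted log2 fold change, male over hermaphrodite buds of 7–12 mm, for the 53 genes in descending order, with the standard error implied by edgeR's F test. The 3 genes called higher in males are blue, at 1.93, 1.49 and 1.11, and dotted lines mark a change of 2-fold either way.

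Some of the anther regulators were lower in the same comparison. Of the 15 genes of the anther pathway, chosen by the study partly on these samples, 1 was higher in males, 4 were lower and 10 were not called. DYT, a bHLH factor of early tapetum, was higher in males (2.05 and 3.25 CPM, against 0.612 and 0.619 CPM in hermaphrodites). AMS isoform 1, a bHLH factor of the tapetum, was lower, with 232.7 and 257 CPM in males and 975.3 and 643 CPM in hermaphrodites (log2 fold change -1.76 ± 0.47, SE, adjusted p = 0.0373 by edgeR), as were SPL/NZZ, TPD1, a small secreted ligand needed for tapetum fate, and CpMMD1. The summed level of 6 genes of the gynoecium and of organ growth was 430.5 and 283 CPM in males and 849 and 730.2 CPM in hermaphrodites of 7–12 mm. Most of that sum was HAIKU2, with 342 and 208 CPM in males and 740 and 629 CPM in hermaphrodites. CRABS CLAW, a regulator of carpel growth, lay the other way, with 41.7 and 38.0 CPM in males and 24.7 and 27.5 CPM in hermaphrodites, as did AIL1, with 2.36 and 1.48 CPM in males and 1.35 and 0.867 CPM in hermaphrodites. The part of these genes in the results was not tested.

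In buds of 1–6 mm the members were low but not absent. The mean level at 1–6 mm as a share of that at 7–12 mm had a median of 2.07% over the 53 genes in males (range 0 to 15.9%) and of 0.585% in hermaphrodites (range 0 to 16.3%). It was at least 5% for 17 genes in males and 12 in hermaphrodites. The highest male share was that of supercontig_94.79, which had 148 and 99.8 CPM in male buds and 70.2 and 82.9 CPM in hermaphrodite buds of 1–6 mm, and 927 and 634 CPM in male buds and 1054 and 764 CPM in hermaphrodite buds of 7–12 mm. The highest hermaphrodite share was that of supercontig_49.149, with 6.53 and 3.10 CPM at 1–6 mm. These shares are bounded by the rule, which put every library of 1–6 mm at no more than 25% of the lowest library of 7–12 mm.

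Male buds of 1–6 mm were higher than hermaphrodite buds for 7 members and lower for none, by the same test. Over all genes tested 4.59% were called, 2.34% higher and 2.25% lower. The members passed the filter on low counts through their 7–12 mm libraries and were capped by the rule at 1–6 mm, so their count is not like that of all genes and nothing is read from its size. The 7 were supercontig_85.29, evm.model.supercontig_147.2, supercontig_4.17, evm.model.supercontig_4.214, evm.model.supercontig_561.1, supercontig_423.2 and evm.model.supercontig_8.70. From summed counts the median fold was 1.72 over the 39 members with enough counts for a fold, 3 of them at a lower bound. Over all 53, with 0.5 CPM added, the male level was above the hermaphrodite one for 28 members within replicate 1, with a median ratio of 1.05, against 60.7% of genes of at least 5 CPM. Within replicate 2 it was above for 35, with a median of 1.26, against 63.3% of genes. The 7 calls thus concern single genes.

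The plainest case was supercontig_85.29, with 160.1 and 40.3 CPM in male buds and 4.1725 and 0.442 CPM in hermaphrodite buds of 1–6 mm (log2 fold change 5.01 ± 0.99, SE, adjusted p = 0.0233 by edgeR). The gene supercontig_147.2 had 61.6 and 27.8 CPM in males and 2.62 and 0.442 CPM in hermaphrodites, and supercontig_4.17 had 17.1 and 6.22 CPM in males and 0.269 and 0.885 CPM in hermaphrodites. The gene supercontig_4.214 had 26.4 and 5.16 CPM in males and 1.01 and 1.33 CPM in hermaphrodites. In all 4 genes both male libraries lay above both hermaphrodite ones, and male replicate 1 was the highest. At 7–12 mm the same 4 genes were not called between the sexes, with log2 fold changes of -0.10 ± 0.74 (supercontig_85.29), 0.41 ± 0.54 (supercontig_147.2), -0.11 ± 0.43 (supercontig_4.17) and 0.27 ± 0.54 (supercontig_4.214, all SE).

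The other 3 were at lower levels. The gene supercontig_561.1 had 2.23 and 0.455 CPM in male buds and no count in either hermaphrodite library of 1–6 mm, which with 3 counts over the group as the floor is at least 11.2-fold higher. The gene supercontig_423.2 had 1.03 and 0.152 CPM in males and no count in hermaphrodites, at least 5.02-fold higher, and supercontig_8.70 had 0.845 and 1.21 CPM in males and 0.269 and 0.221 CPM in hermaphrodites. The last rests on 22 counts in males and 5 in hermaphrodites. The calls of supercontig_85.29, supercontig_561.1 and supercontig_423.2 were all lost without male replicate 1 or without hermaphrodite replicate 1 of 1–6 mm, and the count of 7 became 3 and 2 without these libraries.

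Whether the male to hermaphrodite difference changed with bud size was tested as an interaction, a test added after the values were seen. No member was called by edgeR, where 0.512% of all genes tested were, 0.248% with the male excess larger at 7–12 mm and 0.264% with it larger at 1–6 mm, and 12 members had an unadjusted p under 0.05, 8 of them with the male excess larger at 1–6 mm. DESeq2 called 4, edgeR with the replicate block called 4, and limma-voom called none. The nearest was supercontig_4.17 (change of the log2 difference -4.83 ± 0.93, SE, adjusted p = 0.0805 by edgeR). The difference between the sizes therefore did not pass the main test for any of the genes above.

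Among the anther regulators, CpMS1 was also higher in males at 1–6 mm. It had 215 and 171 CPM in male buds and 171 and 181 CPM in hermaphrodite buds of 7–12 mm, against 62.0 and 6.52 CPM in male buds and 0.135 and 0 CPM in hermaphrodite buds of 1–6 mm. It was the only 1 of the 15 pathway genes called between males and hermaphrodites at 1–6 mm (adjusted p = 0.0458 by edgeR). This call was close to the limit, and the 2 male libraries of 1–6 mm were far apart. By RNA-Seq the study compared the same groups and did not call CpMS1 different between males and hermaphrodites. Its quantitative PCR, on samples of a later year, found CpMS1 higher in male than in hermaphrodite flowers. The study said that this might be due to the number or the stage of the buds sampled. The ratio of CpMS1 by the rule was 2.74, short of 4 through male replicate 1 of 1–6 mm, and that of AMS isoform 2 was 2.45. AMS isoform 2 had 92.4 and 81.0 CPM in male buds and 39.3 and 50.3 CPM in hermaphrodite buds of 7–12 mm, and 15.8 and 6.98 CPM in male buds and 3.97 and 4.42 CPM in hermaphrodite buds of 1–6 mm. Of the regulators known to act earlier, TDF1, a MYB factor, already had 540 and 424 CPM in males and 262 and 316 CPM in hermaphrodites of 1–6 mm. AMS isoform 1 had 899 and 725 CPM in males and 529 and 641 CPM in hermaphrodites of that size. SPL/NZZ and DYT were lower there, at no more than 12.7 CPM.

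**Figure D5:**
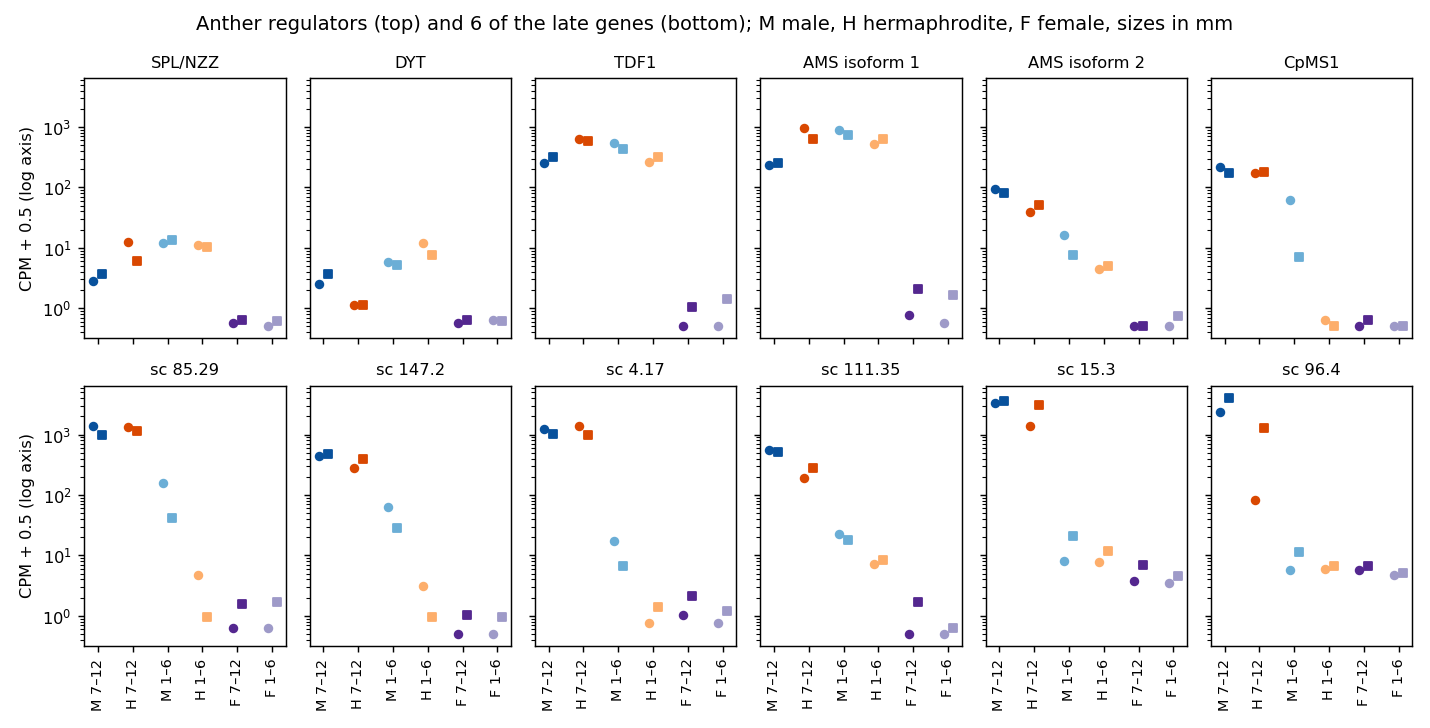
Level as CPM + 0.5 on a log axis in the 12 libraries (circle, replicate 1; square, replicate 2) of 6 anther regulators (top row) and 6 of the late stamen genes (bottom row). TDF1 lies at 262 to 540 CPM in the male and hermaphrodite buds of 1–6 mm already, whereas CpMS1 and the members supercontig_85.29, supercontig_147.2 and supercontig_4.17 lie lower in male and lower still in hermaphrodite buds of 1–6 mm.

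Against female buds of 1–6 mm, male buds of that size were higher for 17 members and lower for 1, where 12.8% of all genes tested were called, 5.86% higher and 6.95% lower. From summed counts the members had a median fold of 3.71 over the 39 with enough counts, 2 of them at a lower bound. In hermaphrodite buds 11 members were higher and 2 lower, where 11.7% of all genes were called, 5.15% higher and 6.52% lower, and the median fold was 2.23 over 35 members, 2 of them at a bound. Both comparisons use the same female libraries. The rule set a ceiling on all 3 groups, and a gene near 0 in females can differ in 1 direction only, so the direction of these calls is not free of the rule, and the members passed the filter on low counts through their 7–12 mm libraries, so the counts are not read against those of all genes. TMM, edgeR's scaling of libraries, moved the log2 fold changes of all genes by 0.22 in the male and by 0.12 in the hermaphrodite comparison. In males the call of evm.model.supercontig_3.300, at a log2 fold change of 1.01, lay within this shift of the 2-fold limit.

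The largest change was that of supercontig_111.35, with 21.7 and 17.6 CPM in male buds, 6.80 and 7.96 CPM in hermaphrodite buds and 0 and 0.117 CPM in female buds of 1–6 mm. A single count in the females lies behind it, so that the male level was 487 times the female one with a counting interval of 87.0 to 19286 (adjusted p = 0.000534 by edgeR), and the hermaphrodite level 168 times, with an interval of 29.6 to 6681 (adjusted p = 0.00287 by edgeR). At 7–12 mm this gene had 544 and 516 CPM in male buds, 189.1 and 275 CPM in hermaphrodite buds and 0 and 1.21 CPM in female buds. Its order of male, hermaphrodite and female was the same at both sizes, and both calls of 1–6 mm held in every alternative run.

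Next in males came supercontig_147.2, with 0 and 0.468 CPM in females (a ratio of 309, counting interval 120.3 to 1135), and supercontig_85.29, with 0.132 and 1.17 CPM in females (a ratio of 249, counting interval 143 to 483). Both calls were lost when only the libraries of the comparison were fitted. In hermaphrodites the next were evm.TU.contig_40357.1, with 1.14 and 0.885 CPM against 0.0658 and 0 CPM in females (adjusted p = 0.000724 by edgeR), and supercontig_112.27, with 7.34 and 4.20 CPM against 0.724 and 0.351 CPM (adjusted p = 0.000627 by edgeR). The last 2 calls held in every alternative run. Among the other male calls, chosen for mention after their values were seen, evm.model.supercontig_12.174 had 7.37 and 0.910 CPM in male buds, no count in hermaphrodite buds and 0 and 0.117 CPM in female buds of 1–6 mm. The gene evm.TU.contig_37200.1 had 2.72 and 0.758 CPM in males and no count in females, at least 17.1-fold higher. In both genes male replicate 1 was the higher library. So single members, such as supercontig_111.35, were already above the female level in buds described as before meiosis. Nothing is read from these calls for the group.

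The exceptions were at a few counts. The gene evm.model.supercontig_107.58 was the member called lower in males at 1–6 mm, with 0.181 and 0.152 CPM against 0.658 and 0.935 CPM in females (log2 fold change -2.35 ± 0.53, SE, adjusted p = 0.00885 by edgeR), from 4 and 18 counts, and the call was lost without male replicate 1. The gene supercontig_8.70 was lower in hermaphrodites, with 0.269 and 0.221 CPM against 0.921 and 1.17 CPM in females (adjusted p = 0.005 by edgeR), from 5 and 24 counts, and the call was lost without hermaphrodite replicate 1 of 1–6 mm. The gene supercontig_423.2 had no count in hermaphrodites and 5 in females, which bounds the fold at 1.36 or more, under the 2-fold limit for a call, and 10 alternatives ended the call. It passed the filter through its 7–12 mm libraries alone. All 3 were at no more than 1.21 CPM in every library of 1–6 mm.

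Several of the libraries compared decided these counts. The 18 calls between males and females became 8 without female replicate 1, 13 without female replicate 2 and 11 without male replicate 1, and stayed at 18 without male replicate 2. The 13 calls between hermaphrodites and females became 7 without female replicate 1, 9 without female replicate 2, 7 without hermaphrodite replicate 1 and 8 without hermaphrodite replicate 2, and 14 without male replicate 1, which is in the fit but not in the comparison. Fitting only the 4 libraries of a comparison left 5 calls for males and 7 for hermaphrodites.

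In female buds, which have no stamens, 6 members had no count in any of the 4 libraries and 16 had at most 3 counts in all. A count was present in all 4 libraries for 28 members, and the median over the 53 was 10 counts summed over the females. More members were at 0 in replicate 1 of females, 22 at 7–12 mm and 18 at 1–6 mm, than in replicate 2, 13 and 12. Replicate 1 nonetheless held more counts. By the study's alignment summary it had fewer reads than replicate 2 of females, but a larger share of them was assigned to genes. The number of genes with a count over the whole series also ran higher in replicate 2 of females (20956 and 20931) than in replicate 1 (20193 and 20279), and its part in the members' counts was not tested. The clearest case, chosen after its values were seen, was evm.model.supercontig_216.23, with 0 and 6.73 CPM in female buds of 7–12 mm and 0.0658 and 7.01 CPM in those of 1–6 mm, while male buds had 277 and 262 CPM and hermaphrodite buds 168 and 211 CPM at 7–12 mm. Its female counts thus came from replicate 2 of both sizes. A count of 0 in a female library allows a level of up to 0.197 to 0.404 CPM.

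Between the sizes, 1 member was higher and 1 lower in female buds of 7–12 mm than in those of 1–6 mm, where 1.94% of all genes were called, 0.745% higher and 1.2% lower. The gene evm.model.supercontig_3.300 had 3.58 and 3.63 CPM at 7–12 mm and 1.32 and 1.52 CPM at 1–6 mm (log2 fold change 1.25 ± 0.29, SE, adjusted p = 0.0351 by edgeR). The gene supercontig_94.79 went the other way, with 0.757 and 2.42 CPM at 7–12 mm and 19.5 and 12.158 CPM at 1–6 mm (-3.62 ± 0.53, SE, adjusted p = 0.00935 by edgeR). Thus supercontig_94.79 was lower in the larger female buds, at 0.0782 times its level in the smaller ones from summed counts, while the male and hermaphrodite buds of 7–12 mm were its highest libraries. Neither call remained without female replicate 1 of either size, and 1 call remained without either of the other 2 female libraries or any of the 4 hermaphrodite libraries.

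On the authors' PacBio assembly the 53 genes lay on 47 scaffolds, and 4 pairs were direct neighbours. The pair evm.model.supercontig_26.292 and supercontig_26.291 sits on scaffold scf7180000008439 at 1429335 to 1430357 and 1430422 to 1431010, both on the plus strand and 64 bases apart. Its genes had 138 and 119 CPM (supercontig_26.292) and 128 and 130.03 CPM (supercontig_26.291) in male buds of 7–12 mm, and 22.6 and 65.3 CPM (supercontig_26.292) and 19.3 and 60.9 CPM (supercontig_26.291) in hermaphrodite buds of that size. The levels of the pair thus ran side by side, down to the gap between the hermaphrodite replicates, and whether such close models belong to 1 transcript was not tested.

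The other pairs were less abundant. The genes evm.model.supercontig_55.106 and evm.model.supercontig_55.105 lie 209 bases apart on the plus strand of scf7180000007715, and evm.model.supercontig_55.72 and evm.model.supercontig_55.73 lie 78 bases apart on the plus strand of scf7180000009876. The genes evm.model.supercontig_87.84 and evm.model.supercontig_87.85 face each other from opposite strands of scf7180000007675, 2344 bases apart, with 13.1 and 10.3 CPM (supercontig_87.84) and 45.3 and 34.7 CPM (supercontig_87.85) in male buds of 7–12 mm. These 2 differed in the other libraries, where supercontig_87.84 had a single count in all and supercontig_87.85 had 2.02 to 3.22 CPM. In 3 members, supercontig_15.3, supercontig_112.27 and contig_36442.2, the model overlaps another on the same strand, and 2 members are placed on more than 1 scaffold, so their counts are less certain.

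In length the members lay near the genes with a count in some library, a set not matched to them in level. The median coding length was 947 bases, against 838 over the 23196 genes with a count, and 54.7% were under 1000 bases, against 58.6%. A single coding interval made up 26.4% of members and 23.3% of those genes. No test was made of these properties.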

How the data were processed

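Per the paper's methods, the authors used FastQC (0.11.5) and Trimmomatic (0.36) on the reads, HISAT2 (2.0.5) and SAMtools (1.3.1) for alignment to their PacBio assembly, and featureCounts (1.5.2) for reads per gene. Gene models were coding sequences placed with GMAP, without untranslated regions. The deposited counts are whole reads, unnormalized. Per the file headers the strand was used, multiply aligned reads were counted at each place, and mates were not joined to pairs, so intervals cover counting error only.

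Members were found from CPM computed here. Tests were run in R 4.3.3 with edgeR 4.0.16 (filterByExpr with a minimum count of 10, TMM, 1 coefficient per group over 12 libraries, robust quasi-likelihood F tests). DESeq2 1.42.0 and limma 3.58.1 (voom) served as alternatives. Each SE is the fitted change divided by the root of its F. Folds against a group at 0 use 3 counts over the group. Counting intervals are exact at 95%. The steps were tested on simulated data.

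Replicates of the same number were run on 1 platform, and their deviations from group means correlated with r = 0.734 to 0.839 over 15 pairs of groups, so the number was tried as a block. Members, gene lists and tests were chosen with earlier results of these data known. Genes named are the 10 most abundant, the 5 with the largest ratio, called genes with the largest change (up to 5 each way at 7–12 mm between males and hermaphrodites, 3 elsewhere), 3 either side of the fold, and neighbours. Others are said to be chosen after their values were seen, or complete a list. Contrasts of male and hermaphrodite buds of 7–12 mm with the other buds, which the rule used, were not tested.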

Additional observations from a re-analysis of the deposited data

How the results depend on the processing

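The rule kept 32 genes with a fold of 8 in place of 4, and between 45 and 69 with a fold of 3, a minimum of 10, 0.1 added, TMM totals or libraries thinned to the smallest. Leaving out 1 library gave 53 to 89 genes. Between males and hermaphrodites of 7–12 mm, the 3 calls became 6 with the replicate block, 5 with DESeq2, 14 with limma-voom and 5 by adjusted p alone, and 1 to 11 with 1 library left out. Between these sexes at 1–6 mm, the 7 calls became 3 with limma-voom and 2 with only the libraries compared, and 2 to 9 with 1 library left out. For males against females the 18 calls became 11 with limma-voom and 5 with only the libraries compared, and 8 to 20 with 1 left out. For hermaphrodites against females the 13 calls became 6 with limma-voom and 7 with only the libraries compared. They became 8 without replicate 2 of males and of hermaphrodites of 1–6 mm, in which the most reads failed to align. With 1 library left out they became 7 to 14. For the female sizes the 2 calls became 1 with limma-voom and 0 with only the libraries compared, and 0 to 2 with 1 left out. The block moved no other of these counts by over 1.5 times, and it took the members called in the interaction test from 0 to 4. Of the values of single genes named, 296 kept their call, 57 lost it and 0 reversed. The cause was not tested, apart from the fewer libraries in some fits. With 2 libraries a group and female levels of a few counts, small differences were not detectable at this depth.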
